A study of Mus musculus with 16 samples.

Results

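Mouse embryonic stem cells with the ERK pathway switched on were compared with the same cells with it switched off. The on state pooled the 8 libraries collected 2 h and 4 h after induction of a RAF kinase, and the off state pooled the 8 libraries collected before induction (0h) or after a MEK inhibitor had ended a 4 h induction (rev). All 16 libraries of the series were used, and 12215 of its 52636 gene models had enough counts to be tested. Because the earliest and the latest samples are both off, the grouping asks which transcripts follow the signal and not the time since induction.

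The line carries an inducible RAF construct that responds to tamoxifen, and it was sampled as 2 clones (4 and 8) with 2 replicates of each clone in each condition. Every culture had spent 48 h in 250 nM of the FGF receptor inhibitor PD17 (PD173074) in place of the MEK inhibitor of its routine medium, which also held LIF and a GSK3 inhibitor. The 0h cultures received nothing further, the 2h and 4h cultures received 250 nM 4-hydroxytamoxifen for 2 h or 4 h, and the rev cultures received it for 4 h and then a MEK inhibitor for 2 h, at a dose not given in the sources used here. The values were read counts per gene from total RNA after removal of ribosomal RNA. Each state holds only 2 conditions, no culture received the vehicle of 4-hydroxytamoxifen, and both clones come from 1 line. The labels do not say whether the replicates of a clone were separate cultures. The p-values measure the spread between these samples, which may therefore in part be technical. In the test of on against off, the differences between 2h and 4h and between 0h and rev also count as spread. The states were taken from the treatments in the labels, since no measurement of ERK itself was used here.

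ERK is the last kinase of the RAF, MEK and ERK cascade, which receptors such as those for FGF switch on. Active ERK phosphorylates transcription factors, and the genes that respond first encode further transcription factors together with Sprouty proteins and dual-specificity phosphatases, which damp the same pathway. In mouse embryonic stem cells the pathway is known for moving cells away from naive pluripotency, and MEK inhibitors are used in culture to hold cells in that state.

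Libraries held 2172651 to 12680303 counts, and 6502783 at the median. On libraries gave the 8 gene models with the most counts 56.3% ± 7.05 of their total (SD, n = 8) and off libraries 63.3% ± 7.66. The difference of -7.00 percentage points had a two-sided exact permutation p of 0.0690 over the 12870 ways to divide the libraries. Among off libraries, rev clone 8 replicate 2 stood apart at 80.4%, with the others at 55.1% to 65.9%. The 10 embryonic stem cell markers summed to 1415 to 1758 CPM (read counts scaled to the same effective library total) in on libraries and to 1370 to 1764 in off libraries. The 8 fibroblast markers summed to at most 10.5 CPM in on and 13.0 CPM in off libraries, with Dcn and Postn at 0 counts in every library, the 5 trophoblast markers to at most 9.46 and 9.49 CPM, the 6 neural markers to at most 36.8 and 48.9 CPM, and the 8 primitive endoderm markers to at most 60.6 and 70.1 CPM. The 6 mesoderm markers summed to 10.7 to 28.3 CPM in on and to 8.29 to 12.5 CPM in off libraries. In bulk RNA, fewer cells of a type and less RNA per cell cannot be told apart.

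The genes with the largest changes rose with ERK, and by far larger factors than any gene fell, although the 2 directions held similar numbers of genes. With clone as a covariate, edgeR's quasi-likelihood test called 859 of the 12215 genes higher in the on state (7.03%) and 934 lower (7.65%) at a Benjamini-Hochberg adjusted p under 0.05, or 14.7% in either direction. The median log2 fold change of on minus off was 0.40 among the genes called higher, -0.54 among those called lower and -0.01 over all genes tested. A change of at least 2-fold was found for 115 higher genes (0.941%) and 113 lower genes (0.925%). Past 4-fold there were 27 higher genes and 1 lower gene, Ppp1r3b, which encodes a glycogen-targeting subunit of protein phosphatase 1, with 4.20 CPM in off and 0.901 CPM in on libraries (log2 fold change -2.27 ± 0.28, adjusted p = 6.54e-06; named after its values were seen). All 8 on libraries lay above all 8 off libraries for 111 genes (0.909%) and below them for 67 (0.549%). When libraries were scaled by their totals alone, without a composition factor, the median of all genes moved to 0.19, the calls became 651 higher and 108 lower, and the higher share of calls rose from 47.9% to 85.8%. The directions given below are relative to that median.

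Single genes were selected by size of change among those with a mean of at least 5 CPM and no overlap between the states, 12 in each direction, so genes of lower level or with overlapping states are not among them whatever their change. Of the 12 selected genes that rose, 3 encode inhibitors of the pathway itself. Spry4 (ENSMUSG00000024427), a Sprouty protein that restrains signalling between receptors and RAF, stood at 135, 187 and 287 CPM in on libraries (lowest, median and highest) and at 0.448, 1.80 and 4.69 CPM in off libraries. The 2 states were far apart in every library, and the log2 fold change was 6.54 ± 0.25 (SE; edgeR adjusted p = 6.11e-15). Dusp6 (ENSMUSG00000019960; chr10:99263231-99267489, GRCm38), the cytoplasmic phosphatase of ERK, stood at 27.6, 37.4 and 67.4 CPM in on and at 0.597, 1.53 and 2.25 CPM in off libraries, with a log2 fold change of 4.95 ± 0.24 (adjusted p = 6.61e-13). Dusp4, a nuclear MAP kinase phosphatase, stood at 8.09, 11.9 and 23.7 CPM in on and at 1.04, 2.23 and 4.90 CPM in off libraries. Its states did not overlap, with a log2 fold change of 2.45 ± 0.27 (adjusted p = 8.83e-07).

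Transcription factors of the early response made up the next group. Egr1 (ENSMUSG00000038418), a zinc finger factor, stood at 202, 361 and 625 CPM in on and at 5.41, 18.7 and 31.1 CPM in off libraries, with a log2 fold change of 4.27 ± 0.26 (adjusted p = 2.11e-11). Myc (ENSMUSG00000022346; chr15:61985391-61990374), a regulator of growth and of the pluripotent state, stood at 21.9, 32.6 and 48.6 CPM in on and at 0.298, 1.64 and 3.81 CPM in off libraries, with a log2 fold change of 4.22 ± 0.19 (adjusted p = 1.68e-13). Neither gene had an on library within the range of the off libraries. The off libraries were not uniform, however. Egr1 averaged 26.3 CPM ± 5.56 (SD, n = 4) at 0h and 10.7 CPM ± 6.41 in rev, whereas Myc averaged 1.03 CPM ± 0.68 at 0h and 2.31 CPM ± 1.06 in rev. Both differences passed the test in the fit with 4 groups, with log2 fold changes of rev minus 0h of -1.36 (adjusted p = 1.06e-05) for Egr1 and 1.27 (adjusted p = 0.0117) for Myc; rev was called higher than 0h for 12.4% of genes and lower for 9.86%.

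BMP signalling was represented by a ligand and by a target. Bmp4 stood at 6.99, 13.5 and 25.8 CPM in on and at 0.597, 2.22 and 4.64 CPM in off libraries (log2 fold change 2.56 ± 0.32, adjusted p = 5.74e-06). Within the on state it was at 8.52 CPM ± 1.25 (SD, n = 4) at 2h and 21.7 CPM ± 4.35 at 4h, with a log2 difference of 1.47 (adjusted p = 8.22e-08; 4h was called higher than 2h for 3.8% of genes and lower for 3.52%). Id3, a helix-loop-helix protein that blocks other factors of its class from binding DNA, had similar means in the conditions of each state. Its 0h libraries differed by clone, with 0.815 and 1.64 CPM in clone 4 and 4.66 and 6.52 CPM in clone 8. It lay between 26.6 and 30.5 CPM in all 8 on libraries and between 0.815 and 6.52 CPM in all 8 off libraries, with a log2 fold change of 3.19 ± 0.18 (adjusted p = 3.85e-12).

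The other selected genes that rose encode proteins of the cell surface, of metal transport and of other functions. Plaur, the urokinase receptor, averaged 12.6 CPM ± 5.86 in on and 2.01 CPM ± 1.51 in off libraries (SD, n = 8; log2 fold change 2.72 ± 0.34, adjusted p = 5.40e-06), and Slc39a14, a metal ion importer, averaged 30.7 CPM ± 8.03 and 6.69 CPM ± 5.22 (2.23 ± 0.30, adjusted p = 1.47e-05). The off state of Slc39a14 was split, with 2.04 CPM ± 0.89 (SD, n = 4) at 0h and 11.4 CPM ± 2.23 in rev, a log2 difference of 2.33 (adjusted p = 2.06e-10). Hs3st3b1, a sulfotransferase that modifies heparan sulfate, had a log2 fold change of 2.99 ± 0.18, Phlda1, a pleckstrin homology-like domain protein, one of 3.48 ± 0.19, and Tiparp, an enzyme that attaches single ADP-ribose units, one of 2.27 ± 0.12, with adjusted p of 1.26e-11, 2.06e-12 and 1.97e-12. Antisense gene models overlap exons of Phlda1, Bmp4 and Tiparp, and as the library kit does not mark strand, reads there could belong to either gene.

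The 12 genes selected by the same limits among those that fell changed by smaller factors. Elf3 (ENSMUSG00000003051; chr1:135253575-135258568), an ETS factor of epithelial cells, stood at 17.9, 23.5 and 33.4 CPM in on and at 61.1, 74.8 and 96.1 CPM in off libraries (log2 fold change -1.74 ± 0.12, adjusted p = 1.11e-10). Rgma (ENSMUSG00000070509; chr7:73375509-73419899), a membrane co-receptor for BMP ligands, stood at 5.39, 7.97 and 11.0 CPM in on and at 19.5, 25.9 and 32.9 CPM in off libraries (-1.69 ± 0.15, adjusted p = 3.39e-08). No on library of either gene reached the lowest off library. The off conditions of Rgma differed, with 20.4 CPM ± 0.93 (SD, n = 4) at 0h and 31.3 CPM ± 1.25 in rev, a log2 difference of 0.65 (adjusted p = 1.55e-04). Both genes have an antisense gene model over an exon.

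The other selected decreases spanned signalling, lipid, calcium and stress genes. S1pr1, a receptor for sphingosine 1-phosphate, averaged 2.59 CPM ± 0.83 in on and 7.49 CPM ± 1.79 in off libraries (SD, n = 8; log2 fold change -1.44 ± 0.19, adjusted p = 1.49e-05). Lefty1, a secreted antagonist of Nodal, averaged 4.49 CPM ± 1.36 and 9.66 CPM ± 1.54 (-1.07 ± 0.16, adjusted p = 6.18e-05). Pnpla3, an enzyme of lipid droplets, had a log2 fold change of -1.41 ± 0.14 and Gadd45b, a stress-inducible growth arrest protein, one of -1.16 ± 0.15. Camk2n1, an inhibitor of the kinase CaMKII, fell by 1.39 on the log2 scale, Kif5a, a kinesin motor, by 1.28, Atg16l2, a relative of the autophagy protein ATG16, by 1.13, and Ryr1, a calcium release channel, by 1.03. Klhdc7a and Fam53b fell by 1.10 and 1.09. The adjusted p of these 8 genes lay between 1.01e-07 and 6.64e-05, and all of the 24 selected genes, which the lack of overlap helped to choose, kept their direction and their call under each of the 28 other settings. Exons of Pnpla3, Atg16l2, Klhdc7a and Ryr1 overlap another gene model.

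**Figure D1:**
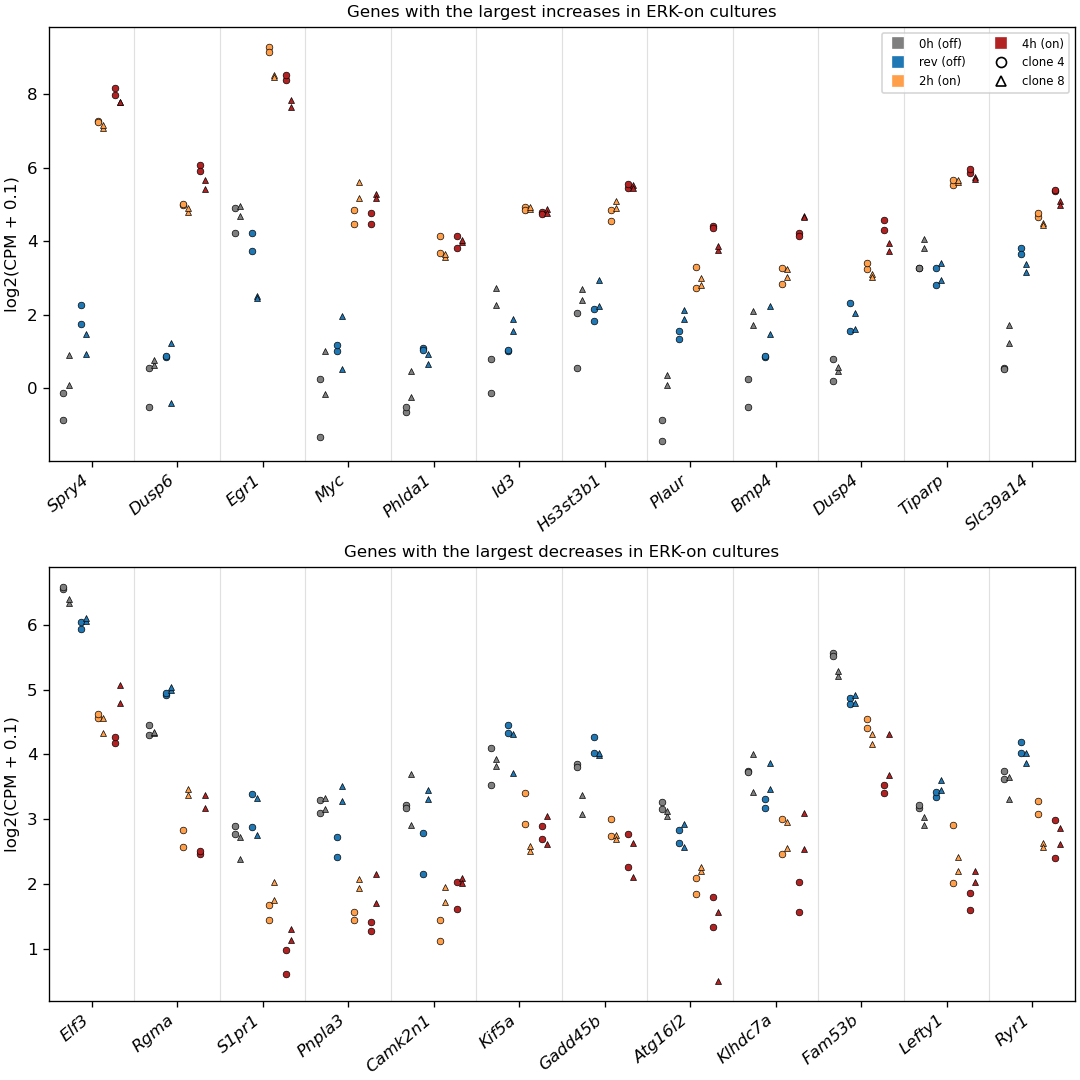
Level of the 12 selected genes that rose (top) and the 12 that fell (bottom), as log2(CPM + 0.1), with 1 point per library; colour gives the condition and shape the clone. The genes were chosen for having no overlap between on (2h and 4h) and off libraries (0h and rev), and the distance between the states differs by gene, from Spry4 with 135 to 287 CPM in on and 0.448 to 4.69 CPM in off libraries to Lefty1 with 2.92 to 7.38 CPM and 7.40 to 12.1 CPM.

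Promoters are shown for the genes among these 24 whose window held a searched sequence motif of a factor that acts in or beside the pathway. RefSeq windows (GRCm38.p6, 250 bases before to 50 after a start site, 300 in all) were matched by symbol for 9235 of the 12215 tested genes, with 11805 windows, and for 6 of the 12 selected genes that rose and 7 of the 12 that fell. Both strands were searched for CRE (TGACGTCA), AP-1 (TGANTCA), ETS (CCGGAAGT), EGR (GCGTGGGCG or GCGGGGGCG), E-box (CACGTG) and the SRF CArG box, and none of these patterns contains another. Capitals mark the matches, and each sequence is given 5′ to 3′ on the strand of its gene. The first 2 belong to genes that rose, with an EGR match 109 bases and an AP-1 match 69 bases before the start site of Plaur (chr7:24462233-24462532, plus strand) and an E-box 188 bases before that of Bmp4 (chr14:46390620-46390919, minus strand). The other 3 belong to genes that fell, with a CRE 46 bases before the start of Pnpla3 (chr15:84167566-84167865, plus strand), an E-box 185 bases before that of Gadd45b (chr10:80929841-80930140, plus strand) and a CRE 18 bases before that of Atg16l2 (chr7:101302039-101302338, minus strand).
Plaur: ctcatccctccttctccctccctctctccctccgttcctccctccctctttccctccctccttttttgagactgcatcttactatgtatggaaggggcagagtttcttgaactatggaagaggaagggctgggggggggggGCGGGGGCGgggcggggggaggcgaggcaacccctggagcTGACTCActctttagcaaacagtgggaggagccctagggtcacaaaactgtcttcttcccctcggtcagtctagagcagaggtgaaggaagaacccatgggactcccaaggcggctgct
Bmp4: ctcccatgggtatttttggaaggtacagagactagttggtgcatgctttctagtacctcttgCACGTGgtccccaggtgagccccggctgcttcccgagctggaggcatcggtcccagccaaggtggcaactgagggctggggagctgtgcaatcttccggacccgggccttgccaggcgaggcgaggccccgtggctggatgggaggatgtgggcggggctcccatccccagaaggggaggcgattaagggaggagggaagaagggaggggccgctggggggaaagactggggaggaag
Pnpla3: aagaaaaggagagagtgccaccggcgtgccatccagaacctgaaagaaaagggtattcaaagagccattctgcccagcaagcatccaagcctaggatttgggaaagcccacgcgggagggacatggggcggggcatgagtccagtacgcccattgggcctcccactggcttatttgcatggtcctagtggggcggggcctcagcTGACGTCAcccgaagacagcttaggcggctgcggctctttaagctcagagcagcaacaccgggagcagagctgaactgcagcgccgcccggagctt
Gadd45b: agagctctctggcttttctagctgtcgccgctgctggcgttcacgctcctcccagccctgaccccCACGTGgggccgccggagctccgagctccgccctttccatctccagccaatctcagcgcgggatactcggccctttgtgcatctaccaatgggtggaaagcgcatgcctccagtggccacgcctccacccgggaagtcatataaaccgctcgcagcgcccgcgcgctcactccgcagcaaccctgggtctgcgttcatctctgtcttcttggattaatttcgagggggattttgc
Atg16l2: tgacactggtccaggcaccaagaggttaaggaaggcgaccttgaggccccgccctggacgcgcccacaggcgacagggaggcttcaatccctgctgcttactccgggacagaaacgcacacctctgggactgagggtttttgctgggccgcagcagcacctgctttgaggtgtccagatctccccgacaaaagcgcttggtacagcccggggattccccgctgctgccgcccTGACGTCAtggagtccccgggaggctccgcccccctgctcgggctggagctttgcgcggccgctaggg

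Counted without a test, the ETS motif was in a smaller share of windows of genes called lower than of all windows. It was in 3.18% of the 976 windows of genes called lower and 8.31% of the 794 windows of genes called higher. Of all 11805 windows it was in 8.28%. Among genes with changes of at least 2-fold it was in 0 of the 85 windows of those that rose and 0.962% of those that fell. Among called genes with no overlap between the states it was in 3.74% of windows of those higher and 3.28% of those lower. CRE was in 4.53% of windows of higher genes, 2.05% of windows of lower genes and 3.09% of all windows, and the E-box in 13.7%, 8.40% and 10.3%. The CArG box was in 2.39% of windows of higher genes, 1.23% of windows of lower genes and 1.23% of all windows, EGR in 8.06%, 6.76% and 6.68%, and AP-1 in 3.90%, 4.82% and 4.66%. Some of these orders turned in smaller sets. AP-1 was in 7.06% of windows of genes that rose at least 2-fold and 2.88% of those that fell at least 2-fold. Among called genes with no overlap between the states, the CArG box was in 0 of 107 windows of those higher and 4.92% of those lower, and the E-box in 10.3% and 14.8%. Windows of higher genes held a median of 23 CpG dinucleotides, those of lower genes 18 and all windows 21. These shares are descriptions of 300 bases around a start site and were not tested.

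Most of the tested inhibitors of the pathway rose. Beside the counts of this and the later lists, 7.03% of all tested genes were called higher and 7.65% lower. Of 20 tested feedback inhibitors, 13 were called higher and 1 lower, the other 6 had negative values that did not pass the test, and the median log2 fold change was 0.62 against -0.01 over all genes. Beside Spry4, Dusp6 and Dusp4, increases of at least 2-fold included Dusp2, an inducible nuclear phosphatase of MAP kinases, with 3.11 ± 0.33 (adjusted p = 5.21e-07), Dusp5, a nuclear phosphatase of ERK, with 1.80 ± 0.19 (adjusted p = 6.58e-07), and Spry2 with 1.27 ± 0.08 (adjusted p = 1.11e-10). Dusp2 was near the limit of detection in the off state, at 0.107 to 1.07 CPM with no library over 10 counts. Spry2 stood at 51.7, 55.1 and 69.3 CPM in on and at 16.7, 23.5 and 30.7 CPM in off libraries, so it was also well above the limit of detection in the off state. The gene called lower was Dusp10, a phosphatase that acts mainly on the stress kinases p38 and JNK, with 4.97 CPM ± 1.24 in on and 7.08 CPM ± 1.07 in off libraries (log2 fold change -0.56 ± 0.15, adjusted p = 0.0124; named after its values were seen), and it lost its call under scaling by library size alone (-0.33, adjusted p = 0.351). The 6 that did not pass lay between -0.32 and -0.12. In contrast, edgeR called 0 of the 22 tested components of the cascade, beside 14.7% of all genes in either direction, with a median of 0.03. These components run from adaptors through RAS and RAF to MEK, ERK and their downstream kinases.

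Of 24 tested immediate-early transcription factors, 14 were called higher and 0 lower, with a median log2 fold change of 0.71, and 22 of the 24 had a positive sign. Egr3, a zinc finger factor related to Egr1, was at 3.80, 7.44 and 14.3 CPM in on libraries and at 0, 0 and 1.30 CPM in off libraries, where all 4 libraries of 0h held 0 counts. Its 2 states did not overlap (adjusted p = 5.45e-09). Within the on state, the AP-1 subunit Fos was at 11.2 CPM ± 4.13 (SD, n = 4) at 2h and 3.94 CPM ± 0.86 at 4h, a log2 difference of -1.41 (adjusted p = 2.49e-05), while all on libraries still lay above the off libraries (log2 fold change of on minus off 2.86 ± 0.37, adjusted p = 1.09e-05). Jun was at 6.65 CPM at 2h and 2.66 CPM at 4h (-1.26, adjusted p = 3.59e-04), and its on and off libraries overlapped. Junb, another AP-1 subunit, was at 28.7 CPM ± 2.07 at 2h and 25.7 CPM ± 1.70 at 4h, a log2 difference of -0.13 (adjusted p = 0.445), and at 5.43 to 13.3 CPM in off libraries. For comparison with the off state, Junb averaged 6.29 CPM at 0h and 11.9 CPM in rev (log2 difference 0.91, adjusted p = 1.09e-05). Exons of Jun and Junb overlap antisense gene models (Junos, Prdx2).

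ETS factors, which bind with SRF at early promoters or act on their own, moved in both directions. Of 15 tested, 4 were called higher and 3 lower, with a median of 0.14. Etv4 was at 22.9, 33.1 and 57.6 CPM in on and at 5.43, 13.9 and 24.4 CPM in off libraries, and the ranges overlapped (log2 fold change 1.34 ± 0.26, adjusted p = 0.00128). Its level followed time as well as state, with means of 7.79 CPM (0h), 24.7 CPM (2h), 49.5 CPM (4h) and 21.5 CPM (rev). Spic, an ETS factor that stem cells express, was at 7.01, 11.8 and 20.0 CPM in on and at 19.2, 27.7 and 33.5 CPM in off libraries (-1.17 ± 0.13, adjusted p = 9.64e-07). Together with Elf3 and Elf4 it formed the group that fell, and Elf4 (-0.39 ± 0.09, adjusted p = 0.00579) lost its call under scaling by library size alone (-0.19, adjusted p = 0.537).

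Ligands and receptors of the growth factor families were divided by member. Of 9 tested, 3 were called higher and 4 lower, with a median of -0.41. Epha2, an ephrin receptor, was at 136, 199 and 269 CPM in on and at 54.2, 64.4 and 79.7 CPM in off libraries (log2 fold change 1.59 ± 0.12, adjusted p = 8.61e-10). Hbegf, a ligand of EGF receptors, was at 8.76, 11.3 and 15.4 CPM in on and at 1.80, 4.08 and 5.99 CPM in off libraries (1.40 ± 0.15, adjusted p = 9.85e-07). Fgf4, the main FGF ligand that embryonic stem cells produce, went the other way, with 47.6, 75.5 and 101 CPM in on and 113, 145 and 187 CPM in off libraries (-1.01 ± 0.11, adjusted p = 7.24e-07). The states of these 3 genes did not overlap. Fgf4 also differed within the off state, with 130 CPM ± 12.5 (SD, n = 4) at 0h and 166 CPM ± 19.1 in rev (log2 difference 0.36, adjusted p = 0.00164). Vegfa, an angiogenic ligand, fell by 0.89 on the log2 scale (adjusted p = 7.15e-08) and the receptor Fgfr1 by 0.41 (adjusted p = 2.64e-04); Fgfr1 lost its call when libraries were scaled by their totals alone (-0.19, adjusted p = 0.487).

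Genes of BMP and Nodal signalling moved in both directions. Of 16 tested, 5 were called higher and 3 lower, with a median of 0.04. Besides Bmp4 and Id3, the genes that rose included Id1, a relative of Id3, at 2.63, 10.1 and 16.7 CPM in on and 0.272, 0.788 and 2.35 CPM in off libraries (log2 fold change 3.06 ± 0.38, adjusted p = 6.56e-06). Smad7, an inhibitor of BMP and Nodal receptors, was at 100, 119 and 154 CPM in on and at 38.2, 50.4 and 66.7 CPM in off libraries (1.25 ± 0.07, adjusted p = 2.06e-12), and neither of these genes had overlapping states. The genes that fell were Rgma, Lefty1 and Smad6, of which Smad6 (-0.53, adjusted p = 0.0270) lost its call under scaling by library size alone (-0.31, adjusted p = 0.415). Nodal itself had a log2 fold change of 0.04 (adjusted p = 0.777). Among 13 genes of mRNA decay and anti-proliferative early response, 5 were called higher and 2 lower, with a median of 0.22. Zfp36l1 and Zfp36l2, which direct AU-rich mRNAs to decay, rose by 1.92 ± 0.21 and 1.45 ± 0.08 (adjusted p = 7.03e-07 and 1.60e-12), with Zfp36l2 at 75.5 to 98.4 CPM in on and 23.1 to 35.6 CPM in off libraries. Nfkbia, the inhibitor of NF-kappaB, fell by 0.87 on the log2 scale (adjusted p = 1.90e-05).

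Pluripotency genes changed by small amounts in both directions. Of 20 tested naive pluripotency genes, 7 were called higher and 4 lower, with a median of 0.08, and without a composition factor the calls became 6 higher and 1 lower. Prdm14, a repressor that protects the naive state, was at 10.8, 15.1 and 20.9 CPM in on and at 24.3, 28.2 and 34.4 CPM in off libraries (log2 fold change -0.92 ± 0.12, adjusted p = 1.34e-05), and was the only member whose states did not overlap. Nanog, a core factor of the naive network, was at 180, 299 and 425 CPM in on and at 294, 391 and 514 CPM in off libraries, which overlapped (-0.41 ± 0.09, adjusted p = 0.00319). Its mean was 394 CPM ± 92.9 (SD, n = 4) at 0h, 344 CPM ± 78.6 at 2h, 250.0 CPM ± 78.5 at 4h, and 392 CPM ± 108 for rev. The call for Nanog was lost under scaling by library size alone (-0.21, adjusted p = 0.444). Klf5, Nr0b1 and Zfp57, a Krüppel-like factor, an orphan nuclear receptor and a protein that maintains imprints, rose by 0.59 ± 0.10, 0.60 ± 0.10 and 0.50 ± 0.07 (adjusted p = 4.41e-04, 2.18e-04 and 9.95e-06). Esrrb and Tbx3 had log2 fold changes of 0.09 and 0.06 with adjusted p of 0.408 and 0.631.

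Genes of the formative and primed epiblast had no member called lower. Of 17 tested, 7 were called higher, with a median of 0.14. Foxd3, a forkhead factor of the exit from naive pluripotency, was at 21.3, 26.8 and 35.0 CPM in on and at 8.35, 10.2 and 14.5 CPM in off libraries (log2 fold change 1.29 ± 0.13, adjusted p = 1.97e-07), with no overlap. Zic2 and Utf1 had log2 fold changes of 0.92 ± 0.16 and 1.03 ± 0.22 (adjusted p = 4.30e-04 and 0.00296) with overlapping states, and Otx2 and Dnmt3b had values of -0.26 and 0.14 that did not pass the test (adjusted p = 0.509 and 0.304). Of the mesoderm markers, T was at 0.852 to 16.8 CPM in on and 0.214 to 3.91 CPM in off libraries (1.59 ± 0.35, adjusted p = 0.00354) and Eomes rose by 0.58 ± 0.16 (adjusted p = 0.0148); the part of such cells in the changes of this list was not tested. Primitive endoderm genes gave 0 higher and 1 lower of 7 tested, the laminin chain Lama1 (-0.36, adjusted p = 0.00104), which lost its call under scaling by library size alone. LIF and STAT3 targets gave 4 higher and 1 lower of 13 tested, and Wnt targets 1 higher and 1 lower of 12, with medians of 0.08 and 0.07, beside 7.03% higher and 7.65% lower among all genes, so the Wnt list was near that background; under scaling by library size alone no decrease of either list was called. Socs3 and Axin2, direct targets of these pathways, had log2 fold changes of -0.07 and -0.02 (adjusted p = 0.863 and 0.922).

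Stress and growth arrest genes were the list with the most members called lower by count. By share, ligands and receptors of the growth factor families held more, with 4 of 9. Of 16 tested stress and growth arrest genes, 6 were called lower and 3 higher, with a median of -0.24. Trib3, a pseudokinase of the integrated stress response, averaged 3.82 CPM ± 1.04 in on and 8.26 CPM ± 3.33 in off libraries (log2 fold change -1.11 ± 0.18, adjusted p = 1.52e-04), and Ddit4, an inhibitor of mTORC1, 7.04 CPM ± 1.20 and 18.7 CPM ± 11.2 (-1.40 ± 0.25, adjusted p = 4.72e-04). Ddit4 differed within the off state, with 27.2 CPM at 0h and 10.3 CPM in rev (log2 difference -1.40, adjusted p = 1.79e-07). Ddit3 and Atf4, transcription factors of the same response, had log2 fold changes of -0.64 and -0.14 (adjusted p = 0.0594 and 0.349). Of 10 apoptosis regulators, 3 were called higher and 2 lower, with a median of 0.0013. The increase in Pmaip1, a pro-apoptotic BH3-only protein, from 14.3 CPM ± 8.63 to 39.9 CPM ± 15.6 (1.57 ± 0.21, adjusted p = 1.83e-05) ran against decreases in Bmf and Bbc3, proteins of the same class, of 0.98 and 0.54 on the log2 scale (adjusted p = 0.00772 and 0.00968). Under scaling by library size alone Bmf and Bbc3 lost their calls (-0.80 and -0.31, adjusted p = 0.0546 and 0.381). Of 12 genes restrained by PI3K through FOXO factors, 3 were called higher and 3 lower, with a median of -0.14, and without a composition factor the calls became 2 higher and 0 lower; Irs2, an insulin receptor substrate, rose by 0.91 ± 0.12 (adjusted p = 1.08e-05).

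Cytoskeletal genes and SRF targets rose in 8 of 12 tested members and fell in 0, with a median of 0.34. The list was higher in 9 members in 2h against 0h and in 4 in 4h against rev, and the test of rev against 0h called 7 members higher (12.4% of all genes). Ccn1, a matricellular protein, averaged 10.6 CPM ± 3.62 in on and 4.57 CPM ± 1.85 in off libraries (log2 fold change 1.33 ± 0.21, adjusted p = 1.45e-04), and Ccn2, a relative of it, 47.4 CPM ± 21.8 and 24.7 CPM ± 6.27 (0.94 ± 0.21, adjusted p = 0.00347). Their states overlapped. Ccn2 was at 16.02 to 22.68 CPM in 0h libraries and 49.49 to 77.03 CPM in 2h libraries. Its 4h libraries lay at 23.2 to 37.7 CPM, a range that contained the rev libraries at 25.5 to 32.3 CPM. The pooled increase of Ccn2 therefore did not hold for 4h beside rev. Of 16 cell cycle genes, 4 were called higher and 2 lower, with a median of 0.09. Cdk6 rose by 0.66 ± 0.16 (adjusted p = 0.00640), with overlapping states. It was at 15.48 to 21.04 CPM in 0h and 34.3 to 37.7 CPM in 2h libraries. Its 4h libraries lay at 44.7 to 47.7 CPM and its rev libraries at 32.6 to 38.8 CPM. The 2h libraries of Cdk6 thus lay within the range of rev. The inhibitor Cdkn1a fell by 0.43 on the log2 scale (adjusted p = 0.00121), which did not pass the test under scaling by library size alone. Ribosome biogenesis gave 2 higher of 24 tested, cholesterol and fatty acid synthesis 2 of 18 and glycolysis 1 higher and 1 lower of 16, with medians of 0.14, 0.02 and 0.04. These counts are near the background of 7.03% higher and 7.65% lower, although 23 of the 24 ribosome biogenesis genes had a positive sign. Of these 24 genes, 7 were called higher in 2h against 0h (10.3% of all genes) and 2 in 4h against rev (10.1%). The test of rev against 0h called 13 of them higher (12.4% of all genes). Of 12 reference genes 1 was called, Actb, with a log2 fold change of 0.34 (adjusted p = 0.0394), a call that was lost without any 1 of 11 libraries, and the others lay between -0.17 and 0.15.

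**Figure D2:**
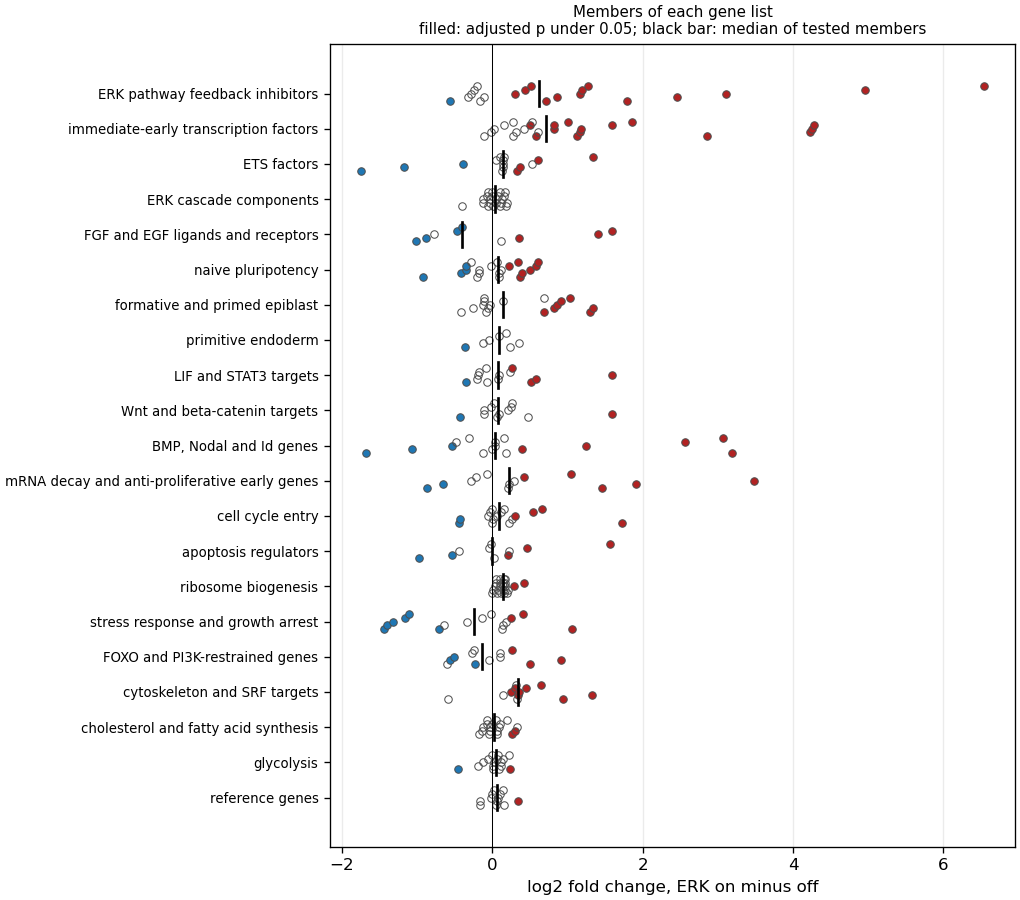
Log2 fold change of on minus off for the tested members of each gene list, with 1 point per gene; filled points passed an adjusted p of 0.05 (red higher, blue lower), open points did not, and black bars mark the median of the list. Feedback inhibitors and immediate-early factors spread to the right, with medians of 0.62 and 0.71, while the 22 cascade components cluster around 0.03 with no filled point.

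The on and off libraries can be divided into 2 comparisons that share no library, 2h against 0h and 4h against rev, each tested in its own 8 libraries. The first called 1255 genes higher (10.3%) and 1081 lower (8.85%), and the second 1229 higher (10.1%) and 1072 lower (8.78%). Without a composition factor the first called 709 higher and 744 lower, and the second 1348 higher and 46 lower. Both called 410 genes higher (3.36% of those tested), which is 32.7% of the first list and 33.4% of the second, and 314 genes lower (2.57%), which is 29.0% and 29.3%. A further 77 genes were called in opposite directions. Crossing the conditions, 2h against rev called 501 genes higher (4.1%) and 676 lower (5.53%), and 4h against 0h called 1915 higher (15.7%) and 1832 lower (15%). Those 2 crossed comparisons, in which the difference in time also changes sign, both called 233 genes higher (46.5% and 12.2% of the lists) and 186 lower (27.5% and 10.2%), with 178 in opposite directions. Across the 12215 genes the log2 fold changes of 2h against 0h and of 4h against rev correlated with a Pearson r of 0.459 and a Spearman rho of 0.306, and those of the crossed comparisons with 0.204 and 0.102; genes are not independent replicates, and libraries of the same clones enter both. The 24 selected genes, which were chosen from all 16 libraries, passed both comparisons.

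The sizes in the 2 comparisons are given side by side, and whether they differ was not tested for single genes. Spry4 changed by 7.15 in 2h against 0h and by 6.22 in 4h against rev, and Dusp6 by 4.54 and 5.26, on the log2 scale. Myc and Slc39a14 changed more in the first (4.97 and 3.39) than in the second (3.60 and 1.72), and Bmp4 and Tiparp more in the second (2.99 and 2.66) than in the first (1.76 and 1.94). Among the genes that fell, Elf3 changed by -1.95 and -1.49, and Rgma, S1pr1 and Lefty1 by -1.19, -0.90 and -0.61 in the first and by -2.14, -2.12 and -1.58 in the second. Of the 20 feedback inhibitors 12 were called higher in both, of the 24 immediate-early factors 10, of the 17 formative and primed genes 7, of the 20 naive pluripotency genes 6, of the 16 BMP, Nodal and Id genes 4, and of the 12 cytoskeletal genes and SRF targets 4. Of the naive pluripotency genes 1 was called lower in 2h against 0h, 7 in 4h against rev and 1 in both. Both comparisons called 6 of the 16 stress genes lower. Of the 22 cascade components both called 0 in the same direction, while 1 was called in opposite directions.

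**Figure D3:**
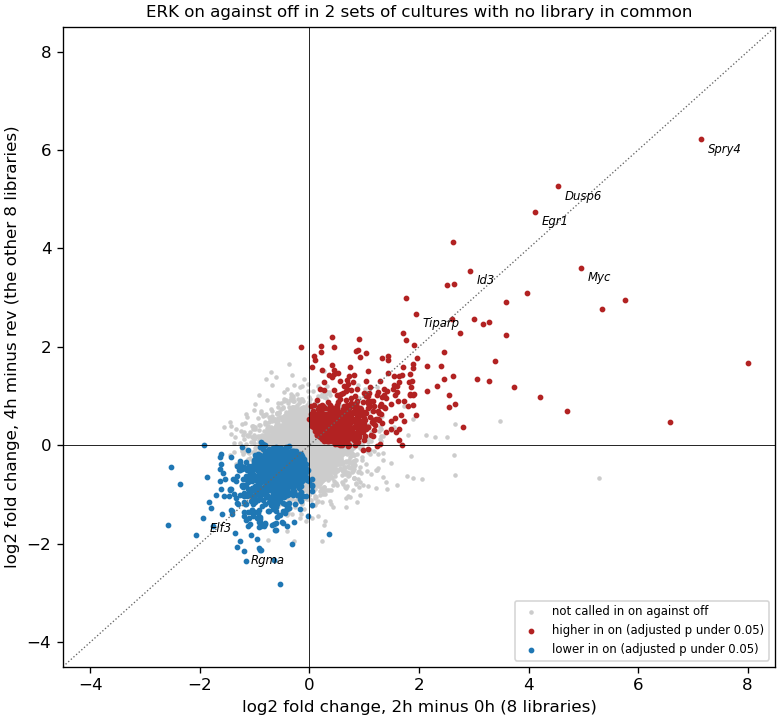
Log2 fold change of 2h minus 0h (x) against that of 4h minus rev (y), which have no library in common; each point is a gene, coloured by its call in on against off. Genes called higher lie mainly at the top right (Spry4, 7.15 and 6.22) and genes called lower at the bottom left (Elf3, -1.95 and -1.49), and r across all 12215 genes was 0.459.

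How much of a gene's variation followed the state was measured as the share of the squared differences among the 4 group means that lies along on against off. The remainder lies along 4h against 2h and along rev against 0h. A test of any difference among the 4 groups called 4917 genes (40.3%), and their median share was 40.5%, beside 33.1% for all tested genes. The share was over 50% for 2021 of the 4917 genes, over 90% for 389 and under 10% for 1002. As the call of on against off uses the same means, its genes have high shares by construction, with medians of 74.8% for the higher and 78.1% for the lower genes. Id3 had 99.9% of its differences along the state, Smad7 98.9%, Zfp36l2 99.0%, Dusp6 98.2%, Pnpla3 98.2% and Elf3 96.8%, whereas Slc39a14 had 68.8%, Plaur 74.8% and Fam53b 76.7%.

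**Figure D4:**
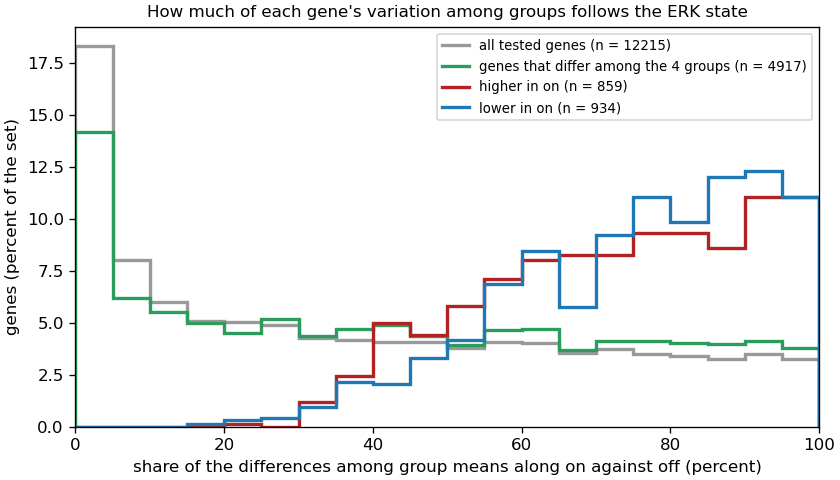
Distribution of the share of differences among the 4 group means that lies along on against off, in percent on the x axis, as a percent of the genes in each set. Genes that differ among the groups (green) have a median of 40.5%, close to the 33.1% of all tested genes (grey), while genes called higher or lower lie to the right because the call uses the same means.

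Genes at the other end differed among the groups and hardly between the states. Those with the highest rev minus 0h difference were Jade2, Msc, Bnc2 and Lad1, and those with the lowest Trerf1, Pitpnc1, Zfp606 and Fuca2. Bnc2, a zinc finger protein, averaged 5.18 CPM (0h), 7.02 CPM (2h), 17.6 CPM (4h) and 15.1 CPM (rev), and Jade2, a protein of histone acetyltransferase complexes, 3.09, 3.94, 11.8 and 10.4 CPM in the same order. Their log2 fold changes of on minus off were 0.30 ± 0.29 and 0.16 ± 0.37 (adjusted p = 0.541 and 0.826), while the test over 4 groups gave adjusted p of 5.56e-12 and 5.48e-09. Msc, a helix-loop-helix repressor, had another course, with 4.75 CPM (0h), 14.1 CPM (2h), 7.95 CPM (4h) and 14.7 CPM (rev). Pitpnc1, a lipid transfer protein, fell with time from 9.97 CPM at 0h to 8.62, 4.02 and 4.17 CPM.

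No gene was called for a difference in response between the clones. With clone by state as a term, edgeR called 0 of 12215 genes (0%, and 661 at an unadjusted p under 0.05). All 859 higher and all 934 lower genes kept their sign in each clone fitted alone. They were called in libraries of both clones, which favours a shared sign. Across genes the log2 fold changes of the clones correlated with r = 0.664, and with 0.920 over the called genes, which were chosen in libraries of both clones. A fit with each of the 8 combinations of condition and clone as its own mean, added after the data were seen, called 12 genes. Of these, Id3 rose by 4.06 in clone 4 and 2.64 in clone 8 (difference -1.33 ± 0.27, adjusted p = 0.0298) and Epha2 by 1.88 and 1.30 (-0.59 ± 0.10, adjusted p = 0.00777). Klf5 rose by 0.28 and 0.89 (0.61 ± 0.12, adjusted p = 0.0176), and Klf4 had -0.63 and -0.08 (0.52 ± 0.11, adjusted p = 0.0298). Over both clones Klf4 was called lower (-0.35, adjusted p = 0.00907), and it lost that call under scaling by library size alone (-0.15, adjusted p = 0.601).

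Genes with changes of at least 2-fold had fewer exons at the median than all tested genes. Protein-coding genes that rose at least 2-fold had a median of 4 exons and a genomic span of 10437 bases, and those that fell at least 2-fold a median of 6 exons and 14177 bases, beside 10 exons and 24909 bases over all tested protein-coding genes. Both 2-fold sets were also of low level, with a median mean of 4.64 CPM for genes that rose and 2.16 CPM for those that fell, both below the median of all tested genes, and the part of level in the exon counts was not tested. All genes called higher had a median of 8 exons and those called lower 10. The calls also grew with level, from 12.8% of genes in the lowest of 3 equal classes of mean CPM to 14.4% in the middle and 16.8% in the highest class. Protein-coding models made up 817 of the 859 higher and 874 of the 934 lower genes.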

How the data were processed

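The deposited table held the authors' raw read counts, 1 whole number per gene and library; STAR 2.5.3a, bcl2fastq 2.19.1 and mm10 are named in the submitters' processing notes, and the counting tool, annotation and strand setting are not given in the sources used here. Groups, clones and replicates came from the sample titles. Of 52636 identifiers, 52489 matched GENCODE M21 (GRCm38) and 147 did not; 0 columns were left unused. Reads in exons shared with another gene could not be assigned.

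The state comparison, the gene lists and the naming rule were chosen with earlier results of these data known. The low-count filter was filterByExpr on the 4 conditions, after which counts were scaled with TMM (factors 0.463 to 1.47) and fitted with state and clone in edgeR 4.0.16 (limma 3.58.1, R 4.3.3), with two-sided quasi-likelihood tests and Benjamini-Hochberg adjustment over 12215 genes. CPM was computed on library totals multiplied by the TMM factor; a floor of 3 counts equals 0.213 to 1.35 CPM and covers counting error only. The pipeline was tested on simulated data.

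Named were the 12 genes per direction with the largest log2 fold change, a call at the 0.05 threshold, a mean no lower than 5 CPM and no overlap between the states (95 higher and 45 lower genes qualified), up to 6 called members of each list, up to 3 genes per direction differing between clones, and 4 genes per direction with under 10% of their differences along the state. Further list members are given with their values, chosen after those were seen.

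Alternatives were RLE size factors, library size alone, other low-count filters, no clone covariate, a replicate block, a 4-group fit, removal of the 8 most abundant models or their share as a covariate, DESeq2 1.42.0, a fold threshold, each clone, each library left out, and shorter promoter windows.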

Additional observations from a re-analysis of the deposited data

Results flagged for a closer look

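Single libraries that stood apart from the other 3 of their condition were looked for in 107 named genes and 4 conditions each, by the gap to the nearest library over the whole range. Of 428 groups 15 (3.5%) were marked, and chance marks about 1 in 20 groups.

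Among signalling and early genes, Phlda1 was at 17.5 CPM in 2h clone 4 replicate 2, with the others at 11.8 to 12.7 CPM, Zfp36l2 at 98.4 CPM in 2h clone 8 replicate 2 (others 75.5 to 78.4) and Hbegf at 1.80 CPM in rev clone 8 replicate 2 (others 3.69 to 3.84). In the same rev library Erf was at 101 CPM (others 72.1 to 74.9). Gadd45b was at 19.1 CPM in rev clone 4 replicate 1 (others 15.7 to 16.2).

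In 4h clone 4 replicate 1, Zfp36 was at 3.41 CPM (others 6.31 to 6.84), Mcl1 at 157 CPM (others 123 to 128) and Ccn1 at 6.60 CPM (others 7.79 to 7.94). In 4h clone 8 replicate 2, Prdm14 was at 18.7 CPM (others 10.8 to 11.6), Trib3 at 3.68 CPM (others 3.15 to 3.23) and Foxo3 at 67.1 CPM (others 47.9 to 48.6), and in 4h clone 8 replicate 1, E2f3 at 45.8 CPM (others 50.9 to 51.1). Ccn1 was at 17.2 CPM in 2h clone 4 replicate 1 (others 11.8 to 12.7), Cnn2 at 5.14 CPM in rev clone 8 replicate 1 (others 3.30 to 3.61) and Actb at 1049 CPM in 0h clone 4 replicate 2 (others 1201 to 1219).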

How the results depend on the processing

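Of the counts for on against off, 859 higher and 934 lower, RLE factors, DESeq2, a filter at a mean of 1 CPM, no filter and removal of the 8 most abundant models moved neither by more than 1.5 times. Library size alone left 108 lower, 5 genes with all on below all off, 28 lower in both 2h against 0h and 4h against rev, and 1681 genes differing among the 4 groups (added after seeing the data). Leaving out the clone covariate gave 504 higher and 518 lower. The 4-group fit, in which differences within a state do not count as spread, gave 1564 and 1548. The abundant-model share as a covariate gave 592 and 568, and a 2-fold threshold 115 and 113. Clone 4 alone gave 255 and 221 and clone 8 alone 239 and 187. Leaving out 1 library at a time gave 602 to 924 higher and 651 to 1014 lower genes, and 0 to 1 for the difference between clones. That count was 26 without a low-count filter and 12 with 8 cells of group and clone (added). Values centred within each clone (added) separated 184 genes above and 113 below. The division into 2h against rev and 4h against 0h gave 233 higher and 186 lower in both, and 178 in opposite directions.

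With 150 bases before the start site, AP-1 was in 2.64% of windows of higher and 3.48% of lower genes, ETS in 2.15% of lower, and the E-box in 10.2% and 5.84%. The causes of these shifts were not tested.

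With replicate number within clone as a replicate block, the paired fit called 736 higher and 799 lower genes, and 84.8% of the calls were made again. Same-numbered libraries did not deviate together (12 pairs, r from -0.117 to 0.0690, 0 over 0.1), so the numbers were not taken as pairs. Of 75 other named list genes, 27 kept their call in every setting and 0 reversed; 9 lost it without single libraries, Mcl1 without any 1 of 12, Actb and Vcl of 11, Pim1 of 10, Slc2a1 of 9, Ccnd2 of 7 and Cited2 of 3, Cdkn1b without 0h clone 8 replicate 2 (and with library size alone, -0.28, adjusted p = 0.343) and Gadd45a without 4h clone 4 replicate 1. The floor of 3 counts was highest in rev clone 8 replicate 2 (1.35 CPM) and 2h clone 4 replicate 2 (1.31 CPM), which limits genes near it.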
